A study of Mus musculus with 4 samples.

Results

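Pi16/Dpp4 fibroblasts are described here in single-cell RNA sequencing of stroma-enriched mouse submandibular gland, a major salivary gland. They are the 258 cells of 36685 retained that met 4 conditions on raw UMI counts (unique molecular identifiers, each an estimate of 1 captured RNA molecule): at least 1 UMI of Pdgfra, at least 4 UMIs over Dcn, Lum, Dpt and Clec3b together, no UMI of Pecam1, Cdh5 or Ptprc, and at least 2 UMIs of Pi16 and Dpp4 together. The cells were thus chosen by measured UMIs of 10 genes, and nothing is concluded from the levels of those genes. The comparison set, called Pi16/Dpp4-free fibroblasts, met the same conditions but had no UMI of Pi16 or Dpp4 and held 1122 cells. Cells with exactly 1 such UMI, 39 and 65 in the deligated and 11 and 17 in the homeostatic libraries, entered neither set.

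The deligated group had 2 libraries from female C57BL6/J mice aged 14 weeks, whose main submandibular and sublingual ducts had been clipped for 14 days and then freed for 5 days. The homeostatic group had 2 libraries from female C57BL6/J mice aged 12 weeks without surgery or other treatment. All glands were trimmed of fat and interstitial tissue, dissociated, depleted of EpCAM and Ter119 cells with magnetic beads and freed of dead cells, so shares of cells are shares of what these steps left. The protocol names sublingual glands too among those harvested. The labels do not say how many animals gave each library or whether the libraries came from separate animals. The p-values therefore measure the spread between these libraries, which may be technical.

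Pi16, a secreted peptidase inhibitor with a lipid-anchored form, and Dpp4 (CD26), a cell-surface peptidase, are known as markers of adventitial fibroblasts, the fibroblasts of the sheaths around vessels, ducts and fascia in many organs. Such cells typically also carry Cd55, Cd248, Ackr3, Anxa3, Sema3c, Limch1, Mfap5 and Igfbp6. Fibroblasts within the parenchyma lie next to basement membranes and typically carry Col15a1, Col4a1, Hspg2, Lpl, Fgf10, Smoc2, Penk and Sparcl1. In the GENCODE M21 annotation of GRCm38 (mm10), Pi16 spans bases 29317680 to 29330593 of chromosome 17 on the plus strand, and Dpp4 spans bases 62330073 to 62412231 of chromosome 2 on the minus strand, where it overlaps the opposite-strand gene Gm13561.

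The 4 libraries held 4725 to 13266 barcodes and 35662241 to 53898793 UMIs. The filters kept 4521 and 8386 deligated and 11713 and 12065 homeostatic cells. Pairs of libraries shared 14 to 54 barcodes, at most 0.482% of the smaller library. In deligated Pi16/Dpp4 fibroblasts 8.30% and 8.15% of UMIs fell on genes with over 100 kb of intron, against 16.5% and 17.1% in homeostatic ones. In the free cells the shares were 8.77% and 8.30% against 15.8% and 16.003%. The file headers name Cell Ranger 6.0.1 for the deligated and 7.0.0 for the homeostatic libraries, whereas the submitters' processing notes list 6.0.1 throughout. Software version, age and surgery cannot be told apart here.

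The number of Pi16/Dpp4 fibroblasts was higher in the deligated libraries, at 95 and 117 cells against 28 and 18. They made up 28.6% (exact 95% binomial interval 23.8 to 33.8) and 20.0% (16.9 to 23.5) of gated fibroblasts in the deligated libraries. In the homeostatic libraries they made up 9.43% and 6.02%, and the group means were 24.3% ± 6.07 against 7.72% ± 2.41 (SD, n = 2). These intervals cover counting error only, and no test was made because the rule sets the share. Depth per cell differed too, since Pi16/Dpp4 fibroblasts had median UMI counts of 13899 and 10009 in the deligated and 9068.5 and 7259 in the homeostatic libraries. Every cell of at least 2000 UMIs was therefore thinned to 2000 and the whole rule applied anew, which left out 3 and 16 deligated and 11 and 5 homeostatic gated cells as shallower. Thinning also removed UMIs of the excluded genes Pecam1, Cdh5 and Ptprc and of the required ones, so the thinned gate held partly different cells, 638 in deligated 2 against 584 before. Then 17 of 297 (5.72%) and 39 of 638 (6.11%) gated deligated fibroblasts had at least 2 UMIs of Pi16 and Dpp4, against 14 of 273 (5.13%) and 11 of 271 (4.06%) homeostatic ones. With at least 1 Pi16 UMI as the measure, the thinned shares were 14.8% and 14.1% against 7.33% and 6.27%, so the size of the difference at equal depth varied with the number of UMIs asked for. The endothelial gate is given beside them as a description. There 1.15% and 0.940% of deligated and 0.526% and 0.480% of homeostatic cells had at least 1 UMI of either gene. Median depths were 6022, 4520, 3685 and 3687 UMIs. After thinning, 0.531% and 0.426% of deligated against 0.202% and 0.208% of homeostatic endothelial cells had a Pi16 UMI.

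Counted per 1000 UMIs of the cell, the order of the groups turned. Fibroblasts with at least 1 Pi16 or Dpp4 UMI per 1000 UMIs numbered 15 and 14 in the deligated and 20 and 11 in the homeostatic libraries, or 3.46% ± 1.4996 against 5.21% ± 2.16 of gated fibroblasts (SD, n = 2). The libraries overlapped, at 4.52% and 2.40% against 6.73% and 3.68%. A median deligated Pi16/Dpp4 fibroblast had 5 and 4 Pi16 UMIs, and a median homeostatic one had 12 and 15.5. Dpp4 had 49 and 8 UMIs over all deligated and 123 and 87 over all homeostatic cells, given as a description of what the rule took in. Both genes were detected in 8 of 95 and 6 of 117 deligated cells and in 19 of 28 and 11 of 18 homeostatic cells. All Pi16/Dpp4 fibroblasts but 1 had a Pi16 UMI, so the rule is in effect a rule on Pi16.

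**Figure D1:**
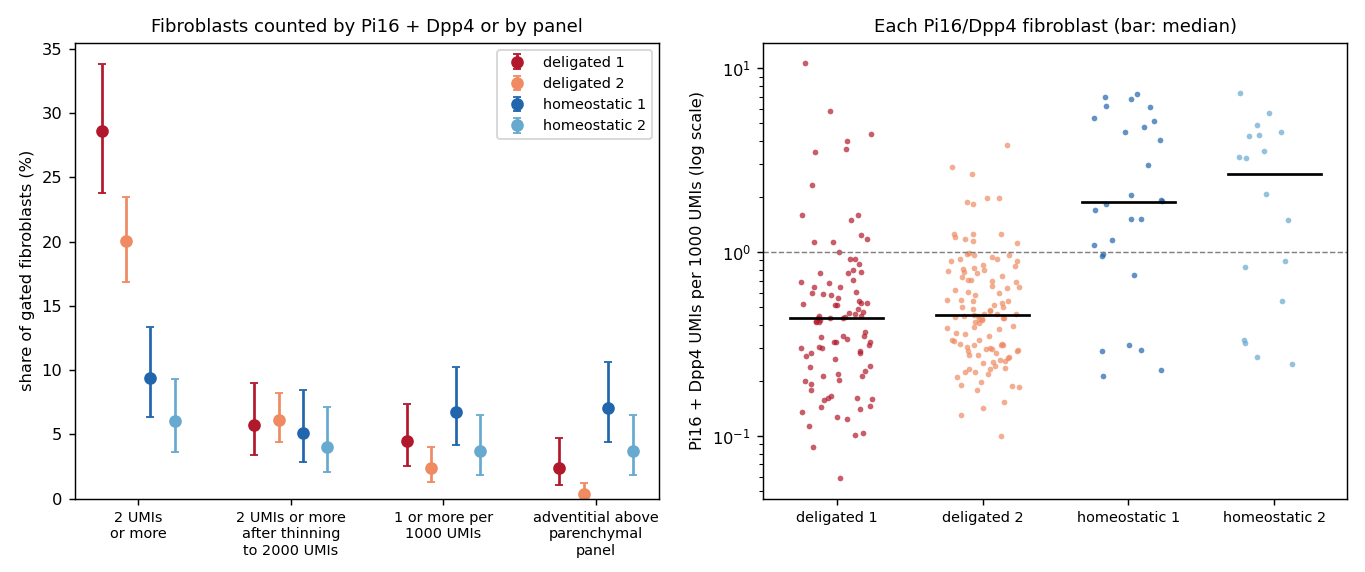
Left, percent of gated fibroblasts in each library that had 2 or more Pi16 and Dpp4 UMIs, kept 2 after thinning to 2000 UMIs, had 1 or more per 1000 UMIs, or had more adventitial than parenchymal panel UMIs, with exact 95% binomial intervals; right, Pi16 and Dpp4 UMIs per 1000 UMIs of each Pi16/Dpp4 fibroblast on a log axis, with the median as a bar and 1 per 1000 as a dashed line. The deligated libraries lie well above the homeostatic ones under the first count (28.6% and 20.0% against 9.43% and 6.02%) and slightly above them after thinning (5.72% and 6.11% against 5.13% and 4.06%), and most deligated cells lie under the dashed line, while 20 of 28 and 11 of 18 homeostatic cells lie at or above it.

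The label was checked with a panel of 12 adventitial genes that the rule did not use and a panel of 8 parenchymal genes. In the homeostatic libraries 18 of 28 and 11 of 18 Pi16/Dpp4 fibroblasts had more adventitial than parenchymal panel UMIs. In the deligated libraries only 6 of 95 and 1 of 117 did. Among Pi16/Dpp4-free fibroblasts, 1 of 198, 0 of 402, 2 of 258 and 0 of 264 did, in the order deligated 1 and 2, homeostatic 1 and 2. The medians of the adventitial panel were 1.12 and 1.16 UMIs per 1000 in deligated against 10.9 and 12.8 in homeostatic Pi16/Dpp4 fibroblasts. Those of the parenchymal panel were 9.05 and 9.43 against 2.05 and 1.29. Without the genes that have more than 100 kb of intron, the counts were 7 and 5 against 20 and 12. The adventitial label therefore held for most homeostatic cells and went against the data for most deligated cells, and the cells are called Pi16/Dpp4 fibroblasts after their rule.

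The panel genes, which the rule did not use, are given next for cells above and below 1 Pi16 or Dpp4 UMI per 1000, as a description. Of the cells with at least 1 such UMI per 1000, 17 of 20 and 11 of 11 homeostatic cells had the adventitial panel ahead, against 4 of 15 and 0 of 14 deligated cells. Of the cells under that level, 1 of 8 and 0 of 7 homeostatic and 2 of 80 and 1 of 103 deligated cells did. Over all gated fibroblasts, whatever their Pi16 and Dpp4 count, 8 of 332 (2.41%) and 2 of 584 (0.342%) deligated and 21 of 297 (7.07%) and 11 of 299 (3.68%) homeostatic cells had the adventitial panel ahead. The deligated libraries were both below both homeostatic ones, and the exact 95% interval of deligated 1 (1.05% to 4.69%) overlapped those of homeostatic 1 (4.43% to 10.6%) and homeostatic 2 (1.85% to 6.49%).

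**Figure D2:**
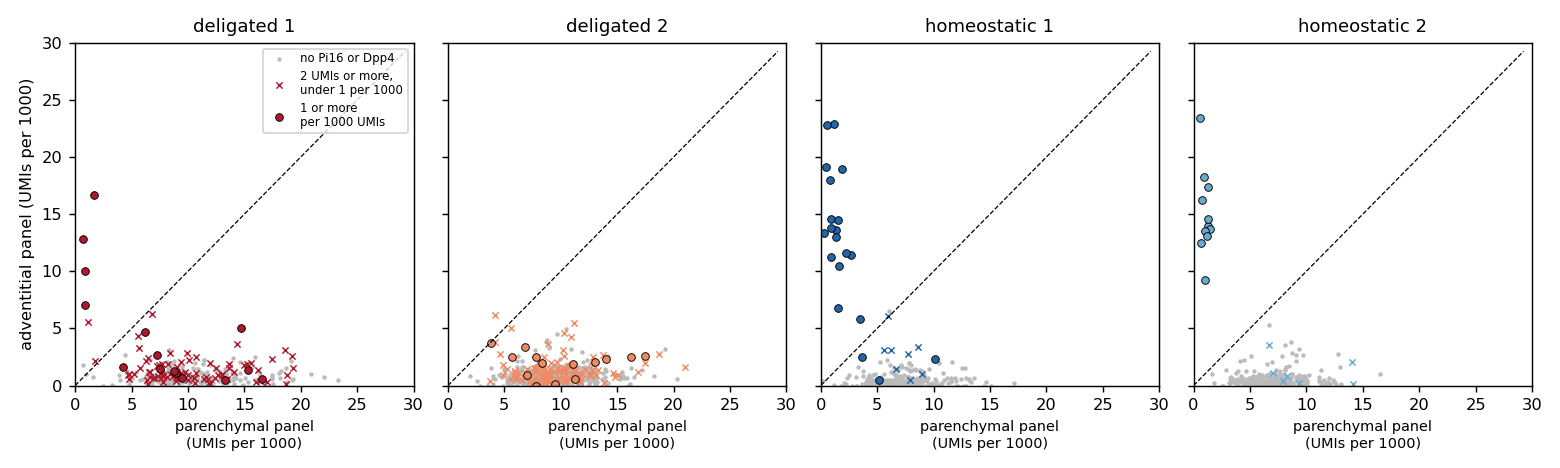
Each gated fibroblast of the 4 libraries, with parenchymal panel UMIs (8 genes) on the horizontal and adventitial panel UMIs (12 genes) on the vertical axis, both per 1000 UMIs of the cell; grey points had no Pi16 or Dpp4 UMI, crosses had 2 or more at under 1 per 1000, and outlined circles had 1 or more per 1000. Homeostatic circles form a group above the dashed line of equality, 17 of 20 and 11 of 11, while only 4 of 15 circles of deligated 1 and 0 of 14 of deligated 2 lie above it and the other deligated cells lie among the grey points.

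Values at the edge of the rule show the same. Cells with exactly 2 Pi16 and Dpp4 UMIs numbered 19 and 26 in the deligated and 5 and 5 in the homeostatic libraries. Their summed CPM (UMIs of a gene scaled to a common total per library and cell set) over 37 adventitial genes was 6059 and 6793 in the deligated and 7600 and 5131 in the homeostatic libraries. In cells with exactly 1 UMI it was 5744 and 6019 against 6372 and 6955, and in the free cells 5128 and 5154 against 4246 and 4780. Over all Pi16/Dpp4 fibroblasts it was 7929 and 6991 against 24617 and 27316. In the endothelial gate it was 6627 and 8357 against 7221 and 7038, so sums of this size also occurred outside the fibroblasts. Collagen XV (Col15a1), which anchors basement membranes to the stroma beneath, was at 2242 and 1639 CPM in deligated and 885 and 2133 CPM in homeostatic cells with exactly 2 UMIs, against 68.0 and 0 CPM in the homeostatic cells at 1 per 1000 or more.

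Markers of other cell types were summed in the Pi16/Dpp4 fibroblasts, and their levels varied by list and library. Summed CPM of 17 leukocyte markers was 55 and 266 in deligated and 45 and 272 in homeostatic cells, with Cd79a and Ms4a1 at 0 in all libraries. The 12 mural markers summed to 667 and 878 against 410 and 258 CPM, mostly Pdgfrb, which fibroblasts also carry, with Notch3, Higd1b, Myh11, Mcam and Rgs4 at 0 in both homeostatic libraries. The 12 endothelial markers outside the rule summed to 302 and 419 against 406 and 489 CPM, with Cldn5 at 0 in 3 libraries and Tek, at 208.9 and 299.0 CPM in the homeostatic libraries, as the largest single part. The 17 epithelial and secretory markers summed to 177 and 86 against 598 and 652 CPM, and to 57 and 128 against 2047 and 1693 CPM in the free cells, with Krt5 and Krt14 at 0 in all libraries and the secreted products Prol1 and Klk1 as the main part in the homeostatic ones. Haemoglobin and Alas2, products of red cells, summed to 141 and 4576 against 102 and 61 CPM in Pi16/Dpp4 fibroblasts and to 19 and 1648 against 5756 and 4745 CPM in free cells. The high value of deligated 2 lay in its cells under 1 Pi16 or Dpp4 UMI per 1000 (5175 CPM), with 101 CPM in the others. The 9 Schwann cell markers summed to 421 and 411 against 295 and 326 CPM, mostly Scn7a, and to 435 and 423 against 544 and 543 CPM in free cells. The 8 adipocyte markers summed to 7.30 to 45.3 CPM, with Adipoq and Plin1 at 0. The part of these signals in the results was not tested.

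The comparison of Pi16/Dpp4 with Pi16/Dpp4-free fibroblasts asks what else sets the Pi16 cells apart. Counts were summed per library and cell set, and genes past an adjusted p of 0.05 are said to have risen or fallen. Over all 4 libraries, 71 of 10889 genes differed (0.652%), 63 higher (0.579%) and 8 lower (0.0735%), after the 10 rule genes were left out. Pcolce2, an enhancer of procollagen processing, was at 60.1 and 10.3 CPM in deligated and 623 and 519 CPM in homeostatic Pi16/Dpp4 fibroblasts, against 0 to 4.54 CPM in the 4 free sums. Its log2 fold change was 6.61 (SE 0.68, adjusted p = 0.0043). Adgrd1, an adhesion receptor, was at 32.4 and 5.15 against 338 and 499 CPM, and 0.282 to 3.97 CPM in the free sums (log2 6.03, SE 0.47, adjusted p = 0.000923). For both genes every Pi16/Dpp4 sum lay above every free sum, and the homeostatic sums lay far above the deligated ones.

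Further genes whose 4 Pi16/Dpp4 sums did not overlap the 4 free sums are given next. Sbsn (suprabasin; log2 3.79), Pamr1 (3.27), the LIM-domain protein Fhl1 (2.99), the matricellular protein Nov (2.93), the lymphangiogenic factor Vegfd (2.79), the microfibril glycoprotein Mfap5 (2.05), the prostacyclin synthase Ptgis (1.36) and the proprotein convertase Pcsk5 (1.36) rose, with adjusted p between 0.0144 and 0.0475. Cspg4 (NG2), a proteoglycan of pericytes and some fibroblasts, fell by 1.03 on the log2 scale (adjusted p = 0.0272), from 74.3 to 96.3 CPM in free to 33.0 to 51.5 CPM in Pi16/Dpp4 sums. Leaving out homeostatic 1 or homeostatic 2 reduced the 71 genes to 18 and 16, and each of these 9 genes lost its call in either case, whereas Pcolce2 and Adgrd1 kept theirs. Leaving out deligated 2 raised the count to 268.

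Taken within each group, which was added after the data were seen, the contrast was large in the homeostatic and small in the deligated libraries. Within the homeostatic libraries 1220 of 10889 genes (11.2%) differed between Pi16/Dpp4 and free fibroblasts, 678 higher (6.23%) and 542 lower (4.98%). Within the deligated libraries 131 (1.2%) did, 94 higher (0.863%) and 37 lower (0.34%). The genes called in both with the same direction numbered 89, which is 67.9% of the deligated and 7.30% of the homeostatic calls. The Pi16/Dpp4 sums of the homeostatic libraries held 391229 UMIs and those of the deligated libraries 2540650. The group with fewer counts thus had more calls, and the cause was not tested.

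Of the 37 adventitial genes outside the rule, all tested, 33 were higher and 1 lower within the homeostatic libraries, with a median log2 fold change of 4.14 against -0.12 over all genes. Within the deligated libraries 20 were higher and none lower, with a median of 0.88 against 0.00 for all genes. Opcml, a cell-adhesion molecule anchored by GPI, was at 1031 and 1564 CPM in homeostatic Pi16/Dpp4 fibroblasts against 7.38 and 13.0 CPM in free cells, and at 21.6 and 3.43 CPM against 0.403 and 0 CPM in the deligated libraries. Cmah, which hydroxylates sialic acid, was at 305 and 492 against 0.567 and 5.105 CPM in the homeostatic and 22.35 and 3.43 against 0.805 and 0.565 CPM in the deligated libraries. Efhd1, a calcium-binding mitochondrial protein, was at 186 and 333 against 2.27 and 1.13 CPM, and at 16.9 and 0 against 0 and 0.282 CPM. In each of these genes deligated 1 stood above deligated 2, as it did in the number of cells with the adventitial panel ahead (6 and 1). The adventitial list was written with earlier results of these data known and is not independent evidence of its direction.

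**Figure D3:**
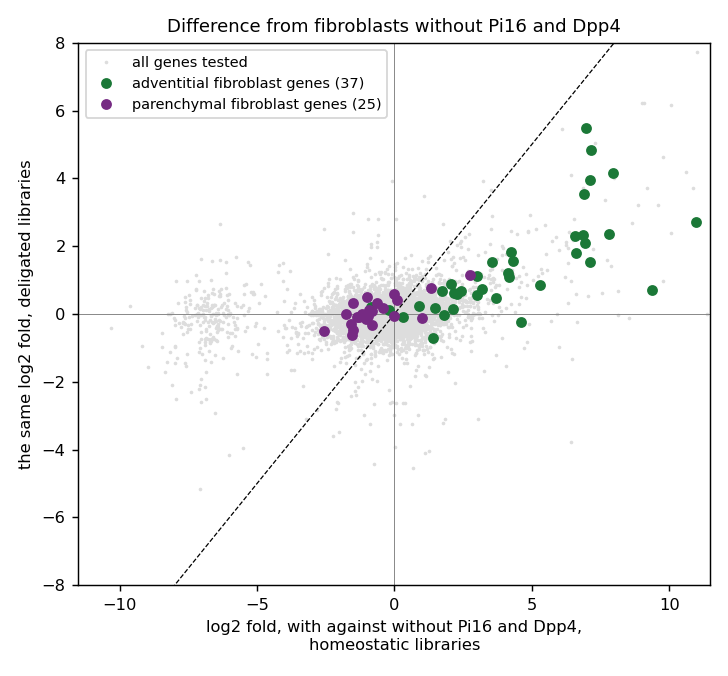
Log2 fold change of Pi16/Dpp4 over Pi16/Dpp4-free fibroblasts within the homeostatic (horizontal) and within the deligated libraries (vertical) for all genes tested without the rule genes (grey), the 37 adventitial genes (green) and 25 tested parenchymal genes (purple); the dashed line marks equal values. Most green points lie to the right of and below the line, with medians of 4.14 and 0.88, and the grey points near -7 on the horizontal axis are mostly genes at or near 0 UMIs in the small homeostatic sums.

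The 30 parenchymal genes, of which 25 passed the filter on low counts, ran the other way. Within the homeostatic libraries 17 were lower and 1 higher in Pi16/Dpp4 fibroblasts, with a median of -0.99. Within the deligated libraries 1 was lower and 2 higher, with a median of -0.03. Fgf10, a growth factor for salivary epithelium, was at 260 and 186 CPM in homeostatic Pi16/Dpp4 fibroblasts against 665 and 625 CPM in free cells (log2 -1.51, adjusted p = 0.000247 within that group). In the deligated libraries it was at 190 and 219 against 375 and 208 CPM (log2 -0.46, adjusted p = 0.398). Itga8, an integrin chain of mesenchyme, was at 61.9 and 53.2 against 163 and 183 CPM in the homeostatic and 60.9 and 65.2 against 94.2 and 101 CPM in the deligated libraries, where it was the 1 lower gene of the list (log2 -0.63, adjusted p = 0.0361). Gpc3, a heparan sulphate proteoglycan, was the list's 1 higher gene within the homeostatic libraries, at 136 and 226 against 71.5 and 64.1 CPM (log2 1.35, adjusted p = 0.00946).

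Whether the contrast of the 2 cell sets differed between the groups was tested by their interaction. It passed for 615 of 10889 genes (5.65%), 276 with a more positive (2.53%) and 339 with a more negative (3.11%) deligated contrast. Of the 37 adventitial genes, 24 had a more negative and 1 a more positive value, with a median of -2.44 against 0.11 over all genes. Igfbp6, which binds insulin-like growth factors, was at 454 and 472 CPM in deligated and 2458 and 2016 CPM in homeostatic Pi16/Dpp4 fibroblasts, against 169.5 and 234 and 124 and 129 CPM in the free cells of the same libraries (interaction log2 -2.94, SE 0.18, adjusted p = 4.28e-08). Pla1a, a phospholipase, was at 168 and 146 against 668 and 665 CPM, with 72.9 and 102 and 10.2 and 24.4 CPM in free cells (-4.45, adjusted p = 2.13e-07). Cd248 (endosialin) was at 242 and 182 against 804 and 785 CPM, with 167 and 120.0 and 85.1 and 117 CPM in free cells (-2.44, adjusted p = 6.02e-07). In all of them the homeostatic Pi16/Dpp4 sums stood above the other sums.

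Of the 25 parenchymal genes tested, 14 had a more positive interaction and none a more negative one, with a median of 0.94. Mgp, the matrix Gla protein that inhibits calcification, was at 11731 and 10266 CPM in deligated and 2837 and 2083 CPM in homeostatic Pi16/Dpp4 fibroblasts, against 7340.1 and 8034 and 4834 and 4929 CPM in free cells (1.51, SE 0.15, adjusted p = 6.63e-06). Cxcl14, a constitutively expressed chemokine, was at 6339 and 6978 against 2437 and 1278 CPM, with 5158 to 5426 CPM over the 4 free sums (1.85, SE 0.20, adjusted p = 2.0e-05). Col15a1 was at 2009 and 1899.7 against 375 and 532 CPM, with 2073 and 1831 and 1489.9 and 1519 CPM in free cells (1.76, SE 0.16, adjusted p = 3.53e-06). Here the homeostatic Pi16/Dpp4 sums were the low ones, and the deligated sums lay near or above those of the free cells.

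**Figure D4:**
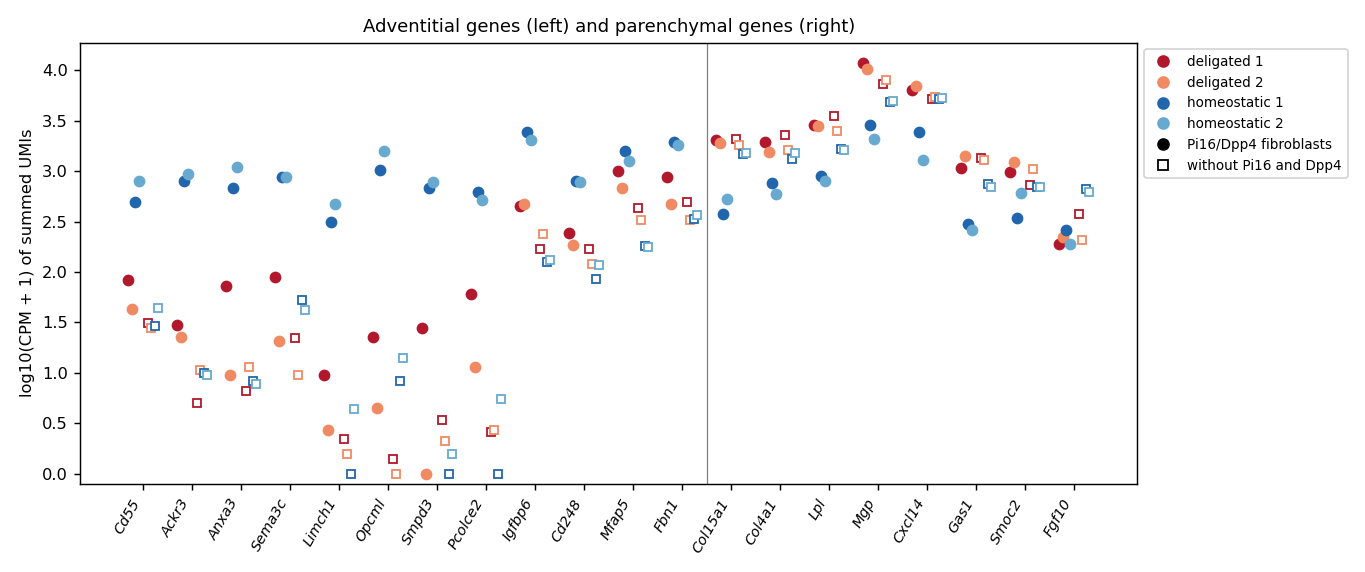
Log10 of CPM + 1 in the summed UMIs of each library for 12 adventitial genes (left of the line) and 8 parenchymal genes (right), with Pi16/Dpp4 fibroblasts as filled circles and Pi16/Dpp4-free fibroblasts as open squares. For Ackr3, Limch1, Opcml and Smpd3 the 2 homeostatic circles stand apart from all other symbols, and for Col15a1, Mgp and Cxcl14 they lie below them.

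Deligated and homeostatic Pi16/Dpp4 fibroblasts were then compared directly, 2 against 2 sums. Of 8111 genes tested, 1353 (16.7%) differed, 426 higher (5.25%) and 927 lower (11.4%) in the deligated libraries. With the trend on intron length removed, 1011 (12.5%) differed, 483 higher (5.95%) and 528 lower (6.51%), so the share of calls that were higher moved from 31.5% to 47.8%. Both fits called 778 genes (9.59%) in the same direction, 293 higher (3.61%) and 485 lower (5.98%). Across genes, Spearman's rho of the log2 fold change with total intron length was -0.45 before and -0.03 after the trend was removed. In the free cells of the same libraries 2530 of 10729 genes (23.6%) differed, 785 higher (7.32%) and 1745 lower (16.3%). The direct comparison sets mainly adventitial-profile homeostatic cells beside deligated cells without that profile, and fewer cells of a type and a changed level per cell cannot be told apart in these sums.

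The adventitial genes fell as a group in the deligated cells. Of the 36 that passed the filter, 32 fell and 1 rose, beside 11.4% and 5.25% of all genes, with a median log2 fold change of -2.73 against 0.02 over all genes. With the intron trend removed the counts were the same and the median was -2.60. Ackr3, a scavenging receptor for Cxcl12, was at 27.6 and 20.9 CPM in deligated and 801 and 941.5 CPM in homeostatic cells (log2 -5.15, SE 0.26, adjusted p = 3.06e-07), while in the free cells its difference was -0.30 (adjusted p = 0.653). After thinning, 2 of 94 and 7 of 116 deligated against 16 of 28 and 10 of 18 homeostatic cells had an Ackr3 UMI. Limch1, an actin-linked LIM protein, was at 8.21 and 1.67 against 312 and 481 CPM (-6.20, SE 0.42, adjusted p = 2.53e-06). Cd55, a membrane inhibitor of complement, was at 79.9 and 41.0 against 493 and 813 CPM (-3.40, adjusted p = 3.77e-05). The 1 listed gene that rose was Cd9, a tetraspanin, named after its value was seen. It was at 627 and 742 against 353 and 196 CPM (1.28, adjusted p = 0.00562).

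Among the cells at 1 per 1000 UMIs or more, 22 of 31 adventitial genes tested were lower and 1 was higher in the deligated libraries, with a median of -2.02. That fit, added after the data were seen, rested on 15 and 14 against 20 and 11 cells and called 733 of 3096 genes, 468 lower and 265 higher. The 17 parenchymal genes that rose of 25 tested over all Pi16/Dpp4 fibroblasts, with 1 lower, had the opposite sense (median 1.56), beside 5.25% of all genes called higher and 11.4% called lower. Lpl, lipoprotein lipase, was at 2769.5 and 2698 against 895 and 813 CPM (1.68, SE 0.17, adjusted p = 5.22e-05) and Gas1, a hedgehog coreceptor, at 1032 and 1388 against 299.7 and 264 CPM (2.09, adjusted p = 7.06e-05). Both genes also rose in the free cells, by 0.87 for Lpl and 0.85 for Gas1, and their interactions were 0.88 (adjusted p = 0.00221) and 1.27 (adjusted p = 0.000558).

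Of 16 matrix collagens, 15 passed the filter and 8 rose in the deligated cells, with none lower and a median of 1.11, beside 5.25% of all genes called higher. In the free cells 10 of 16 rose with a median of 0.80, beside 7.32% of all genes. Col1a1 was at 6760 and 4484 against 2492 and 1998 CPM (1.32, SE 0.21, adjusted p = 0.0011), with 1.37 in the free cells. Col1a2 was at 8713 and 6151 against 3888 and 3543 CPM (1.00, adjusted p = 0.00263). Col6a3, a chain of beaded-filament collagen VI, was at 1603 and 1298 against 583 and 718 CPM (1.16, adjusted p = 0.00208), and Col5a2, of fibrillar collagen V, at 1560.2 and 1180.1 against 689.7 and 576 CPM (1.11, adjusted p = 0.00329). After thinning, Col6a3 and Col5a2 did not pass (adjusted p = 0.0757 and 0.287). Col3a1, named after its value was seen, was at 10777 and 7289 against 4910 and 3285 CPM (1.14, adjusted p = 0.00393). For Col1a1 and Col1a2 the interaction was -0.02 (adjusted p = 0.97) and -0.01 (adjusted p = 1). The chains of fibrillar collagen I thus differed by similar fitted amounts in both cell sets, with a p that does not show that they were equal.

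Of 22 genes that process or crosslink collagen, 19 were tested, 4 rose and 2 fell, beside 5.25% and 11.4% of all genes, so the share that fell was near that of all genes. Lox, the lysyl oxidase that starts collagen and elastin crosslinks, was at 222 and 188 CPM in deligated and 8.21 and 13.5 CPM in homeostatic cells (4.30, SE 0.42, adjusted p = 3.19e-05) and rested on 297 and 225 against 2 and 2 UMIs. In the free cells Lox was 2.19 higher, and the interaction was 2.16 (adjusted p = 0.0338). Sparc, a collagen chaperone of the matrix, was at 7323 and 4412 against 2874 and 2262 CPM (1.19, adjusted p = 0.00359), and Pcolce at 838 and 1049 against 472 and 284 CPM (1.29, adjusted p = 0.00387). Pcolce2 went the other way, at 58.2 and 10.0 against 619.9 and 528 CPM (-4.05, adjusted p = 0.000181), so before thinning, after which Pcolce did not pass (adjusted p = 0.0757), the 2 related enhancers of procollagen processing moved in opposite directions.

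Microfibril genes were divided. Of 17 elastic fibre and microfibril genes, 16 were tested, 5 rose and 4 fell (all genes 5.25% and 11.4%), with a median of 0.30. Ltbp3, a latent TGF-beta binding protein, was at 202 and 211 against 69.8 and 27.1 CPM (1.96, adjusted p = 0.00174), and Mfap2 at 242 and 289 against 94.4 and 88.1 CPM (1.53, adjusted p = 0.00176). Emilin2 was at 101 and 61.9 against 378 and 481 CPM (-2.38, adjusted p = 0.000112). Fibrillin-1 (Fbn1) was at 845 and 454 against 1917 and 1842 CPM (-1.53, adjusted p = 0.00171), but its adjusted p was 0.298 with the intron trend removed (log2 -0.48) and 0.0513 among cells at 1 per 1000 UMIs or more. Emilin2, Fbn1 and Mfap5 are also on the adventitial list.

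Of 24 matricellular genes and glycoproteins outside the rule, 20 were tested, 6 rose and 4 fell (all genes 5.25% and 11.4%). Osteopontin (Spp1) was at 1352 and 723 CPM in deligated and 41.1 and 0 CPM in homeostatic cells (5.37, SE 0.55, adjusted p = 4.97e-05), and was 4.74 higher in the free cells. After thinning, 42 of 94 and 37 of 116 deligated against 3 of 28 and 0 of 18 homeostatic cells had a Spp1 UMI. Biglycan (Bgn), a small proteoglycan, was at 3388 and 3199 against 998 and 589 CPM (2.04, adjusted p = 9.66e-05), and Ctgf, a matricellular growth factor modulator, at 213 and 270 against 45.2 and 27.1 CPM (2.66, adjusted p = 0.000201). Tenascin-X (Tnxb) was at 246 and 259 against 723 and 623 CPM (-1.42, adjusted p = 0.000571). After thinning of the cells, Tnxb was at -1.32 with an adjusted p of 0.118. Groups did not overlap for any of these genes, which held above for 30.5% and below for 29.0% of all genes tested.

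Of 23 proteases and inhibitors, 21 were tested, 10 rose and 1 fell (all genes 5.25% and 11.4%), with a median of 0.83. Cathepsin K (Ctsk) was at 532 and 508 against 152 and 149 CPM (1.79, adjusted p = 0.000238), stromelysin (Mmp3) at 580.0 and 599.6 against 218 and 176 CPM (1.57, adjusted p = 0.000527), and Adamts1 at 147 and 173 against 45.2 and 33.9 CPM (1.97, adjusted p = 0.00123). Timp1, an inhibitor of metalloproteinases, was at 308 and 125 against 16.4 and 0 CPM (4.395, SE 0.75, adjusted p = 0.00177). After thinning, Ctsk did not pass (adjusted p = 0.0606). In the free cells 13 of 21 of these genes rose and 1 fell (all genes 7.32% and 16.3%).

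Growth factors and niche signals went both ways. Of 49 listed, 36 were tested, 8 rose and 12 fell (all genes 5.25% and 11.4%), with a median of -0.24 against 0.02 over all genes. Igf1 was at 911 and 967 against 168 and 74.5 CPM (2.88, SE 0.30, adjusted p = 4.97e-05) and midkine (Mdk) at 476 and 508 against 144 and 102 CPM (1.97, adjusted p = 0.000227). After thinning, Mdk did not pass (0.96, adjusted p = 0.113). Pdgfd, a ligand of PDGF receptor beta, was at 11.2 and 8.36 against 263 and 345 CPM (-4.90, SE 0.30, adjusted p = 1.09e-06), and fell by 2.43 on the log2 scale in the free cells. Igfbp6, described above, fell by 2.32 (adjusted p = 7.57e-06), whereas it was 0.68 higher in deligated free cells.

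Of 36 chemokine, cytokine and adhesion genes, 23 were tested, 5 rose and 4 fell (all genes 5.25% and 11.4%). Cxcl14 was at 6140 and 6798 against 2426 and 1300 CPM (1.79, adjusted p = 0.000378), and was 0.02 higher in the free cells (adjusted p = 0.90). The interleukin 4 receptor chain Il4ra was at 51.5 and 37.6 against 209 and 244 CPM (-2.32, adjusted p = 9.66e-05), and the membrane chemokine Cx3cl1 at 64.2 and 95.3 against 16.4 and 13.5 CPM (2.36, adjusted p = 0.00645). Of 15 complement genes, 12 were tested, 3 rose and 2 fell, beside the same shares of all genes. C3, the central complement component, was at 912 and 1027 against 2775 and 3156 CPM (-1.61, adjusted p = 7.19e-05).

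**Figure D5:**
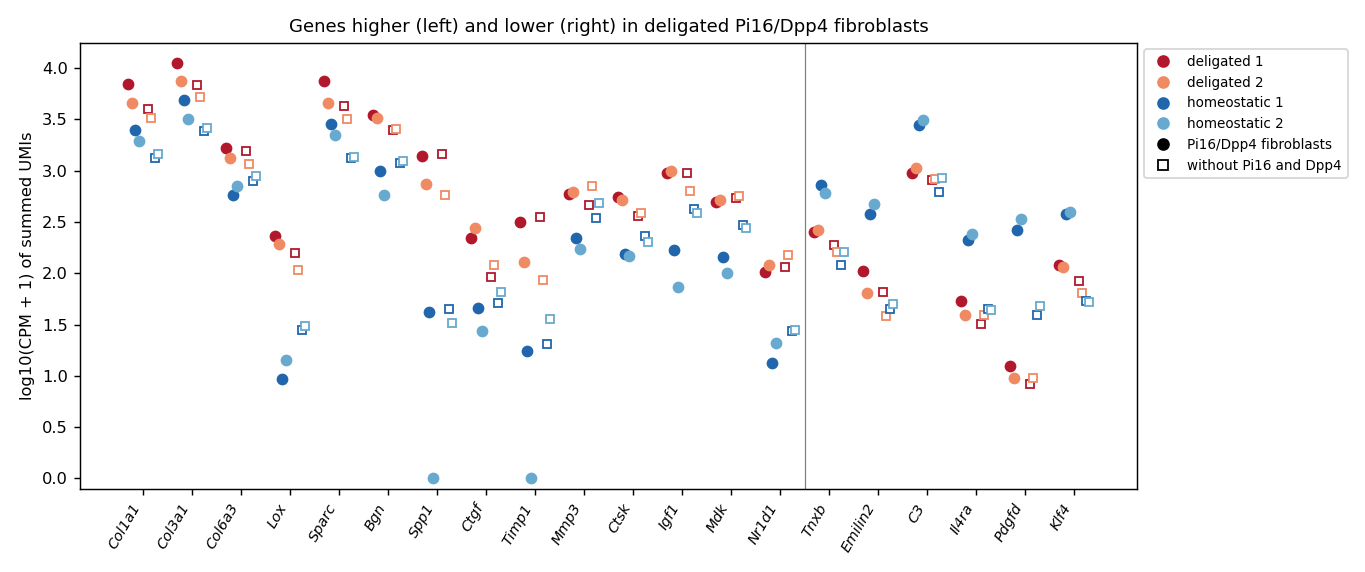
Log10 of CPM + 1 in the summed UMIs of each library for 14 genes that rose (left of the line) and 6 that fell (right) in deligated Pi16/Dpp4 fibroblasts, drawn as filled circles, with Pi16/Dpp4-free fibroblasts as open squares. For Lox, Spp1 and Nr1d1 the deligated symbols of both cell sets lie above the homeostatic ones, whereas for Tnxb, Emilin2, C3 and Klf4 only the homeostatic circles stand high.

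Of the genes with the largest rise, 9 are given here, and 3 of them had no UMI in the homeostatic cells, so that only bounds against 3 UMIs over the group hold. Thrombospondin-4 (Thbs4) was at 138 and 41.0 CPM in deligated cells (at least 12.0-fold higher), Fndc5, the precursor of irisin, at 67.2 and 81.1 CPM (at least 9.60-fold), and the cornea-type proteoglycan keratocan (Kera) at 64.2 and 29.3 CPM (at least 6.21-fold). Fndc5 was at 93.3 to 112 CPM in the free cells of all 4 libraries, so the homeostatic Pi16/Dpp4 sums were the exception. The iron exporter Slc40a1 (46.3 and 42.7 against 0 and 6.77 CPM) and the heat shock gene Hspa1b (45.5 and 36.8 against 4.11 and 0 CPM) rested on 1 homeostatic UMI each, with ratios of 17.4 (exact 95% interval 3.06 to 693) and 16.2 (2.84 to 645). Hba-a1 was at 54.5 and 670 against 20.5 and 6.77 CPM, with the erythroid sums given above beside it, whose part was not tested. Without homeostatic 1, the calls of Thbs4, Kera, Slc40a1 and Hba-a1 were lost (adjusted p between 0.0689 and 0.0842), and Hba-a1 turned to -0.96 after thinning. With DESeq2, Slc40a1, Hspa1b and Hba-a1 had adjusted p of 0.0647, 0.0789 and 0.0582. The others were Spp1, Timp1 and Lox, described above.

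The 10 with the largest fall were mostly genes with long introns or unnamed transcripts. Rgs6, a regulator of G protein signalling with 564 kb of intron, had no UMI in deligated cells and was at 246 and 305 CPM in homeostatic ones (at least 227-fold lower). The metalloproteinase Adamts16 (107 kb) was at 177 and 257 CPM in homeostatic cells against no UMI (at least 175-fold lower), and had no UMI in the free cells of any library. Sntg1, a syntrophin, was at 361 and 406 CPM against 1 UMI in deligated cells, a ratio of 961 (exact 95% interval 170 to 38215). Kcnq5, a potassium channel, was at 94.4 and 20.3 CPM against none. Il31ra (123 and 135 CPM), Gm26561 (148 and 196 CPM), Gm20388 (144 and 122 CPM) and Gm26883 (73.9 and 67.7 CPM) had no UMI in deligated cells either. Cmss1 (15.7 and 7.53 against 4409 and 4430 CPM) and Camk1d (2.24 and 6.69 against 1552 and 1605 CPM) differed by -8.53 and -8.44 on the log2 scale, and by -8.39 and -8.03 in the free cells. Rgs6 and Adamts16 were thus high in the homeostatic Pi16/Dpp4 fibroblasts alone of the 8 sums, while Cmss1, Camk1d, Il31ra and Gm26561 differed by group in both cell sets.

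Of 29 immediate early and dissociation genes, 24 were tested, 6 rose and 3 fell (all genes 5.25% and 11.4%). Junb was at 269 and 328 against 90.3 and 81.3 CPM (1.78, adjusted p = 0.0007) and Fos at 384 and 480.1 against 168 and 163 CPM (1.38, adjusted p = 0.00203). Klf4 was at 116 and 111 against 378 and 406 CPM (-1.78, adjusted p = 0.000156), and Atf3 at 0 and 3.35 against 24.6 and 122 CPM (-5.20, adjusted p = 0.00283). With DESeq2 the adjusted p of Atf3 was 0.0747, and among cells at 1 per 1000 UMIs or more that of Fos was 0.544. In the free cells 12 of 27 rose and none fell (all genes 7.32% and 16.3%). Of 18 circadian clock genes, 12 were tested, 3 rose and 1 fell (all genes 5.25% and 11.4%). The clock repressor Nr1d1 was at 98.5 and 115 against 12.3 and 20.3 CPM (2.78, adjusted p = 0.000903) and was 2.31 higher in the free cells. Npas2 was at 31.4 and 29.3 against 65.7 and 122 CPM (-1.54, adjusted p = 0.0128), a call lost with the intron trend removed (adjusted p = 0.335) and without homeostatic 2. Time of harvest is not given in the sources used here.

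Of 27 interferon response genes 24 were tested, none rose and 1 fell, against 16.7% of all genes called. Few genes of the next lists were tested, with 1 higher and none lower of 6 contractile genes (12 listed) and of 4 cell cycle genes (21 listed), which are shares at or above that of all genes. After thinning, 35.1% and 34.5% of deligated against 7.14% and 16.7% of homeostatic Pi16/Dpp4 fibroblasts had at least 2 UMIs over 21 cell cycle genes. In free cells the shares were 33.7% and 34.3% against 24.0% and 18.9%. The homeostatic values rest on 2 of 28 and 3 of 18 cells, and no cycling is read from them.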

How the data were processed

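The authors deposited 10x Genomics matrices of UMI counts per gene and cell barcode, not normalized, for 4 libraries. The submitters' processing notes name Cell Ranger 6.0.1, Seurat and mm10, and per the file headers the homeostatic matrices came from Cell Ranger 7.0.0. Cells with at least 300 genes and at most 10% mitochondrial UMIs were kept. Doublets were scored against simulated ones (0.8% per 1000 cells, 2000 variable genes, 30 principal components) and removed only in an alternative. The score marked 2 of 28 and 2 of 18 homeostatic Pi16/Dpp4 fibroblasts, all at 1 or more per 1000 UMIs. Of the deligated ones it marked 0 of 95 and 0 of 117. Deposited counts were summed per library and cell set and tested with edgeR 4.0.16 in R 4.3.3 (TMM, filterByExpr, quasi-likelihood test, Benjamini-Hochberg adjustment over all genes tested without the 10 rule genes, threshold 0.05). The standard error is the log2 fold change over the square root of F. CPM of single genes in the comparisons are TMM-scaled, and sums over lists and values by Pi16 and Dpp4 count are plain CPM. The comparison of cell sets had library as a block. Alternatives were DESeq2 1.42.0, size factors, filters, thinning, doublet removal, replicate block, left-out libraries and intron length. Introns and positions came from GENCODE M21, which matched 30934 of 31053 gene IDs. In data simulated for the deligated comparison, with 7881 genes tested, the test recovered 15.5% of 2-fold and 76.8% of 4-fold changes. For the comparison of cell sets it recovered 55.1% and 94.9%, and for the interaction only 4% and 33.3%. The simulation changed only genes above a minimum count and used a fixed dispersion that was not estimated from these data.

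The named genes were, per comparison, the 10 higher and 10 lower by most on the log2 scale among called genes with a mean CPM of at least 20 and no overlap of the sums (in the direct comparison also called with the intron trend removed, and no separation asked for the interaction), and per list the 4 with the smallest p. The members, lists and tests were chosen with earlier results of these data known. Within-group contrasts, the density cut at 1 per 1000 UMIs and the crossed pairing were added after the data were seen. The numbers of the 2 libraries per group come from the labels. Deviations of same-numbered sums correlated at 0.002 over 8118 genes and at -0.112 over the 1709 genes of at least 100 CPM (pseudocount 2). With 2 libraries per group this cannot exclude a shared day or batch, and the main fit used no replicate block. Exact intervals and the floor of 3 UMIs cover counting error only. Results for 3 named genes are not reported here.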

Additional observations from a re-analysis of the deposited data

Results flagged for a closer look

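The change between deligated and homeostatic libraries differed between Pi16/Dpp4 and Pi16/Dpp4-free fibroblasts, by edgeR's test of the interaction, for 615 genes. It was more positive in the Pi16/Dpp4 cells for 276 and more negative for 339. The 10 named genes with the most positive log2 interaction were Fndc5 (9.89), Cyp2f2 (9.87), Hbb-bt (9.00), Thbs4 (8.66), Bhlhe40 (8.14), Hbb-bs (7.67), Hba-a1 (7.47), Hba-a2 (6.86), Mrvi1 (4.06) and Ptger3 (3.83). Fndc5, Cyp2f2, Thbs4 and Bhlhe40 had no UMI in the homeostatic Pi16/Dpp4 cells, so these fitted values are no bounds. The 4 globin genes went with erythroid sums of 4576 CPM in the Pi16/Dpp4 cells of deligated 2 and of 5756 and 4745 CPM in the homeostatic free cells, and the part of free RNA was not tested.

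Genes with the most negative interaction were Rgs6 (-10.20), Smpd3 (-8.24), Mustn1 (-6.98), Thsd4 (-6.86), Arhgef28 (-6.46), Ildr2 (-6.03), Aldh1a3 (-5.59), Limch1 (-5.44) and Chrdl1 (-5.10). Rgs6 had no UMI and Thsd4 had 2 in the deligated Pi16/Dpp4 cells, so these fitted values are no bounds either. Rgs6, Thsd4, Limch1, Arhgef28 and Chrdl1 have 564, 541, 301, 300 and 102 kb of intron. Over all genes, Spearman's rho of the interaction with intron length was -0.097. The intron trend was removed only in the direct comparison, so its part here was not tested. Smpd3, a sphingomyelinase, Limch1 and Aldh1a3, which makes retinoic acid, are on the adventitial list. Of the genes given here, Hbb-bs, Smpd3 and Ildr2 passed under every alternative run. Each of the others lost the call under at least 1 alternative, with a highest adjusted p between 0.149 (Mustn1) and 1 (Thbs4 and Thsd4). Among alternatives that leave out 1 library, the calls of Thbs4, Bhlhe40, Mrvi1, Mustn1, Aldh1a3 and Chrdl1 were lost without homeostatic 1, those of Bhlhe40, Mrvi1, Mustn1 and Arhgef28 without homeostatic 2, those of Arhgef28 and Aldh1a3 without deligated 1, and those of Rgs6, Mustn1, Thsd4, Arhgef28, Aldh1a3 and Chrdl1 without deligated 2.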

How the results depend on the processing

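In the direct comparison, 1353 genes became 801 with DESeq2, 118 of 482 tested after thinning, 733 at 1 UMI or more per 1000, and 822 to 1127 with 1 library left out, the lowest without homeostatic 1. The count stayed within 1.5 times under the other settings, with 1553 in the fit with the replicate block, 1216 in the crossed pairing and 1011 with the intron trend removed. With doublets removed it was 1174, and the count of the interaction was 436. The share of calls that were higher was 31.5%, 24.0% with DESeq2, 38.8% without a filter, and 41.8% and 42.4% without deligated 1 and deligated 2. Against free cells, 71 genes became 152 with DESeq2, 545 without a filter, 157 after thinning, 108 without doublets, 446 at 1 or more per 1000, 158 with group in place of library as a term, 1220 within homeostatic, 131 within deligated, and 16 to 268 with 1 library left out. The interaction's 615 became 261 with DESeq2, 60 after thinning, 373 at 1 or more per 1000, and 376 to 459 with 1 library left out, with 376 without deligated 2 and 388 without homeostatic 1. The share of Pi16/Dpp4 fibroblasts was 16.6 points higher in deligated libraries, 1.32 after thinning, 23.3 at 1 UMI or more, and -1.75 at 1 or more per 1000. Hba-a1 turned to -0.96 after thinning. Thinning and left-out libraries test fewer genes or samples, and elsewhere the cause was not tested. Of the values of named genes under these settings, 869 stayed the same, 2 became stronger, 1 reversed and 19 lost the call in the direct comparison. Against free cells 217 stayed the same, 15 became stronger and 36 lost the call. In the interaction 285 stayed the same and 45 lost the call, so losses were more frequent in these 2 comparisons. The 391229 UMIs of the homeostatic Pi16/Dpp4 cells limit low genes, since 3 UMIs there are 7.67 CPM.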
